A study of Mus musculus with 6 samples.

Results

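The 9 genes described here, Ms4a4a, Ms4a4b, Ms4a4c, Ms4a6b, Ms4a6c, Ms4a6d, Ms4a7, Ms4a8a and Ms4a14, are members of the Ms4a family that are best known from myeloid and other immune cells. They were picked by symbol from the 49568 gene symbols of a count table, and all 9 were among the 19199 genes with enough counts to be tested. The table came from bulk RNA-sequencing of whole lung. The TNF+ group was 3 female mice of 4 months from a TNF-Tg line that carries 1 copy of the human TNF gene, a model in which arthritis and lung disease develop together. The TNF- group was 3 WT female littermates of the same age, and both groups were on a C57BL/6 background. The question was how lung expression differs between mice with and without the transgene. Lungs are named by genotype and replicate number, for example TNF+ 1. All TNF+ mice come from 1 transgenic line, and the transgene is present in every cell of the mouse rather than in the lung alone.

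MS4A proteins cross the membrane several times and sit beside other receptors, whose signaling they adjust. The best known member is CD20, the product of Ms4a1, a surface protein of B cells. Among the 9, MS4A4A associates with the receptor Dectin-1 in macrophages, and the human MS4A gene region is linked to the level of soluble TREM2, a lipid-sensing receptor of macrophages and microglia. Ms4a7 marks mature and monocyte-derived macrophages, Ms4a4b is expressed chiefly by T cells, in which it modulates activation, and Ms4a8a was described in alternatively activated macrophages. The Ms4a6 genes are a group of close copies expressed in monocytes and macrophages.

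The 9 genes lay in 1 cluster on chromosome 19 of the mouse genome build GRCm38 (mm10), within chr19:11067471-11604849, a stretch of 537379 bases. Along the chromosome the order was Ms4a8a, Ms4a14, Ms4a7, Ms4a4a, Ms4a4c, Ms4a4b, Ms4a6c, Ms4a6b and Ms4a6d. Ms4a8a, Ms4a14, Ms4a7 and Ms4a6d are read from the minus strand and the other 5 from the plus strand. All 9 are annotated as protein-coding. The closest pair was Ms4a4b and Ms4a4c, whose coding sequences were identical at 91.8% of aligned positions, 625 of 681. That pair aligned without gaps. Where bases lay opposite bases, Ms4a6b was 84.8% identical to Ms4a6d, 86.7% to Ms4a6c, and Ms4a4a was 77.1% identical to Ms4a4c. With gaps counted as differences these values were 80.0%, 74.3% and 58.9%, so the order of the Ms4a6b pairs depends on how gaps are counted.

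The upstream sequences of the neighboring copies are shown because these copies are set against each other in the results. Each sequence gives the 250 bases before the annotated start in RefSeq GRCm38.p6, 5′ to 3′ on the plus strand, which is the strand of all 4 genes. Capitals mark the longest run of bases that the members of a pair share. Ms4a4c lies at chr19:11407411-11407660, Ms4a4b at chr19:11443308-11443557, Ms4a6c at chr19:11469118-11469367 and Ms4a6b at chr19:11518309-11518558.
Ms4a4c: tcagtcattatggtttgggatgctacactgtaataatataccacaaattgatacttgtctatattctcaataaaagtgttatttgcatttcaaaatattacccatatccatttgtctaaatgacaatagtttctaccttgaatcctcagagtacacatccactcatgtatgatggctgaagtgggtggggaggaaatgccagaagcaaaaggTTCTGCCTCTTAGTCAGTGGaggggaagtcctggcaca
Ms4a4b: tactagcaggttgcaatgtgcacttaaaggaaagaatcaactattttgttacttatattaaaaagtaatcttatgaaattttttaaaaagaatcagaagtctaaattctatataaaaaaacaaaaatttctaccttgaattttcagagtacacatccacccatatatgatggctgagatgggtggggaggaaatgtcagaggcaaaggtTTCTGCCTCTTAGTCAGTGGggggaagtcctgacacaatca
Ms4a6c: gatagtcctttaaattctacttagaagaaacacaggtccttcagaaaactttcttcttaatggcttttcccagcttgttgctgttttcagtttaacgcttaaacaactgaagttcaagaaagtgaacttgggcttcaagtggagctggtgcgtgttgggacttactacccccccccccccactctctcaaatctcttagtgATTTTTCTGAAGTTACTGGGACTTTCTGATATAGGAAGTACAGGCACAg
Ms4a6b: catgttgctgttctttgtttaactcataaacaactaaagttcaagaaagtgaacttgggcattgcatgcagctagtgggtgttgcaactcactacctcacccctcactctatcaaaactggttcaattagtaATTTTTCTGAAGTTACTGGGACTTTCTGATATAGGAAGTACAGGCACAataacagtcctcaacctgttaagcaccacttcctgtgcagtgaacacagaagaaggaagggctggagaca
Ms4a6c and Ms4a6b shared a run of 48 bases, which began 49 bases before the start of Ms4a6c and 118 bases before that of Ms4a6b. Ms4a4c and Ms4a4b shared a run of 20 bases at nearly the same distance from the start, 38 and 41 bases. No other pair of member windows shared a run longer than 9 bases.

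The window of Ms4a14 is shown because it held a PU.1 and an AP-1 match within a short stretch. It lies at chr19:11314455-11314704 of GRCm38.p6 and is printed 5′ to 3′ on the minus strand, with a match to the core of the PU.1 motif and a match to the AP-1 motif in capitals.
Ms4a14: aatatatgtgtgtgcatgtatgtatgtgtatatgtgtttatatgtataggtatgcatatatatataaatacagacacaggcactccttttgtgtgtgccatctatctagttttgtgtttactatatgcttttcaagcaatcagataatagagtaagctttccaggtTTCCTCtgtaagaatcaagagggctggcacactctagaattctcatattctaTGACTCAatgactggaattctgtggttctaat
The PU.1 core GAGGAA, searched on both strands, lay 84 bases before the start on the opposite strand, and the AP-1 motif TGANTCA lay 32 bases before it. RefSeq windows of 250 bases before to 50 bases after the start were matched for 8 of the 9 genes, with 2 starts for Ms4a7 and no entry for Ms4a6d. Among these 9 windows, 4 held the PU.1 core (Ms4a14, Ms4a7, Ms4a4c and Ms4a4b), a motif found in 28.1% of all 32544 mouse windows. The AP-1 motif was in 4 of 9 windows (Ms4a8a, Ms4a14, Ms4a7 and Ms4a4b), against 7.79% of all windows. The C/EBP motif TTNCNNAA was in 8 of 9, against 40.7%, the NF-kB motif in 5 of 9, against 51.0%, TATAAA in 2 of 9, against 13.6%, and the interferon response motif in 0 of 9, against 3.45%. The AP-1 and C/EBP matches were not at the same place in any window, and a match is a description of the letters only.

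The 6 libraries held 25396923 to 30049463 counts in TNF+ and 31400978 to 32529408 in TNF-, and each of the 9 genes was detected in every lung. TNF+ 1 differed in that Gm42418 alone took 5.22% of its counts, while that gene took 0.0774 to 0.274% elsewhere. TNF- 1 carried RNA of squamous epithelium and skeletal muscle: the summed level of 8 such genes reached 4746 CPM (counts scaled to library size), against 12.4 to 35.3 in TNF+. The mouse Tnf gene had 106, 213 and 405 counts in TNF+ and 16, 14 and 35 in TNF-, and how reads of the human transgene were assigned was not measured. Leaving out either library that stood apart did not change which of the 9 genes passed the test.

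Ms4a family genes were higher in TNF+ lungs, but to very different degrees. Of the 9 genes, 7 were higher in TNF+ in edgeR's quasi-likelihood test at a Benjamini-Hochberg adjusted p under 0.05, whereas 24% of all tested genes were, and 47.4% changed in either direction. None (0) was lower, at the unadjusted threshold or with DESeq2 or limma-voom, against 23.4% of all tested genes. The median log2 fold change of the 9 was 2.60, from 0.12 for Ms4a4c to 5.11 for Ms4a7, and the median over all 19199 genes was 0.035. A log2 fold change of at least 2 with a significant test was found for 5 of the 9 and for 4.55% of tested genes. Between the lungs, 8 of the 9 genes had no overlap of normalized counts, all of them higher in TNF+. Of all tested genes, 58.7% had no overlap, 30.5% higher and 28.2% lower in TNF+. In whole lung, more cells of a type and more RNA per cell cannot be told apart, which applies to every value below.

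**Figure D1:**
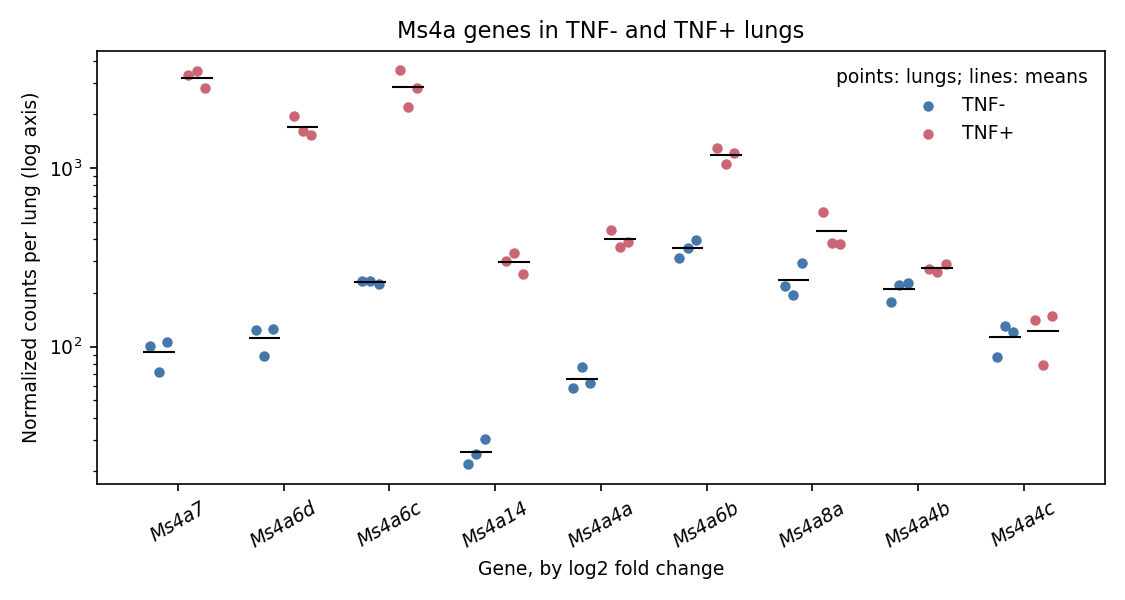
Normalized counts of the 9 Ms4a genes in each lung (log axis), with genes ordered by log2 fold change, points for lungs and lines for group means. Ms4a7 shows the widest gap between TNF+ and TNF-, and the groups overlap for Ms4a4c alone.

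Ms4a7 changed most. It had 2525, 3378 and 2981 counts in TNF+ lungs 1 to 3 and 105, 75 and 120 counts in TNF- lungs 1 to 3. Every TNF+ lung was far above every TNF- lung, with 3212 ± 354 normalized counts against 92.9 ± 18.5 (SD, n = 3 each). The log2 fold change was 5.11 (SE 0.18), a 34.6-fold difference with an adjusted p of 2.72e-06. By p, Ms4a7 ranked 10 of all genes tested. Its log2 fold change stayed between 4.95 and 5.21 when any 1 lung was left out.

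The 2 most strongly changed members of the Ms4a6 group followed. Ms4a6d had 1481, 1553 and 1629 counts in TNF+ against 129, 92 and 141 in TNF-. That was a log2 fold change of 3.92 (SE 0.17, adjusted p = 4.98e-06 in the edgeR test), or 15.1-fold. Ms4a6c, a gene with nearly the same change, had 2672, 2133 and 2983 counts in TNF+ and 243, 242 and 254 in TNF-. The 3 TNF- lungs differed little for Ms4a6c, while TNF+ 2 was the lowest TNF+ lung, and the log2 fold change was 3.63 (SE 0.18, adjusted p = 5.76e-06). Ms4a6b, the remaining member of the Ms4a6 group, had 982, 1013 and 1281 counts in TNF+ and 329, 371 and 446 in TNF-. It was already well expressed without the transgene, and its log2 fold change was 1.73 (SE 0.13, adjusted p = 3.61e-05), or 3.33-fold. Thus Ms4a6b and Ms4a6c, which share the 48-base upstream run printed above, changed to different degrees, by a difference that is tested further on.

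Ms4a14 was a low gene in both groups, with 228, 322 and 270 counts in TNF+ and 23, 26 and 34 in TNF-. Its groups were far apart nonetheless, by a log2 fold change of 3.52 (SE 0.21, adjusted p = 1.29e-05 in the edgeR test). Ms4a4a, the Dectin-1 partner, had 343, 348 and 407 counts in TNF+ and 61, 80 and 70 in TNF-. Its log2 fold change was 2.60 (SE 0.18, adjusted p = 2.33e-05), or 6.07-fold, and the lungs within each group were close to each other.

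Ms4a8a changed less. It had 433, 368 and 396 counts in TNF+ against 228, 203 and 331 in TNF-, with TNF- 3 the highest of the TNF- lungs, and its normalized counts did not overlap. The log2 fold change was 0.90 (SE 0.22), 1.88-fold, with an adjusted p of 0.0112 in edgeR. Leaving out any 1 lung gave log2 fold changes of 0.64 to 1.09, and the adjusted p reached 0.0488 at most. Hence the call for Ms4a8a was the closest to the threshold of the 7.

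The close copies Ms4a4b and Ms4a4c did not pass the test. Ms4a4b had 207, 252 and 307 counts in TNF+ and 185, 232 and 257 in TNF-, and after normalization all 3 TNF+ lungs were above all 3 TNF- lungs. The log2 fold change was 0.39 (SE 0.15, adjusted p = 0.0668 in the edgeR test). Ms4a4c had 107, 76 and 157 counts in TNF+ and 92, 136 and 136 in TNF-, and TNF+ 2 was lower than every TNF- lung. The value for Ms4a4c was 0.12 (SE 0.28, adjusted p = 0.757), and it was between -0.064 and 0.36 when 1 lung was left out, negative without TNF+ 1, without TNF+ 3 or without TNF- 1. The spread of Ms4a4c among TNF+ lungs was therefore larger than the difference between groups.

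The change was uneven along the chromosome. Of the 5 tested genes of other kinds that lie between the 9 genes, Gm5511, a processed pseudogene between Ms4a4c and Ms4a4b, was the only one to pass the test, and it fell by 0.76 (SE 0.19, adjusted p = 0.0126 in the edgeR test) on the log2 scale. The noncoding gene BE692007, whose exons overlap those of Ms4a6c on the opposite strand, had 71, 79 and 89 counts in TNF+ and 96, 88 and 62 in TNF-. Every lung had more counts of Ms4a6c, its neighbor on the other strand, than of BE692007. AW112010, a noncoding RNA gene just outside the 9 genes, next to Ms4a8a, had 1220, 1546 and 2112 counts in TNF+ and 595, 563 and 800 in TNF-. Its log2 fold change was 1.52 (SE 0.14, adjusted p = 9.67e-05 in the edgeR test). Ms4a4c and Ms4a6b also overlap opposite-strand genes, which had at most 1 count in any lung.

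**Figure D2:**
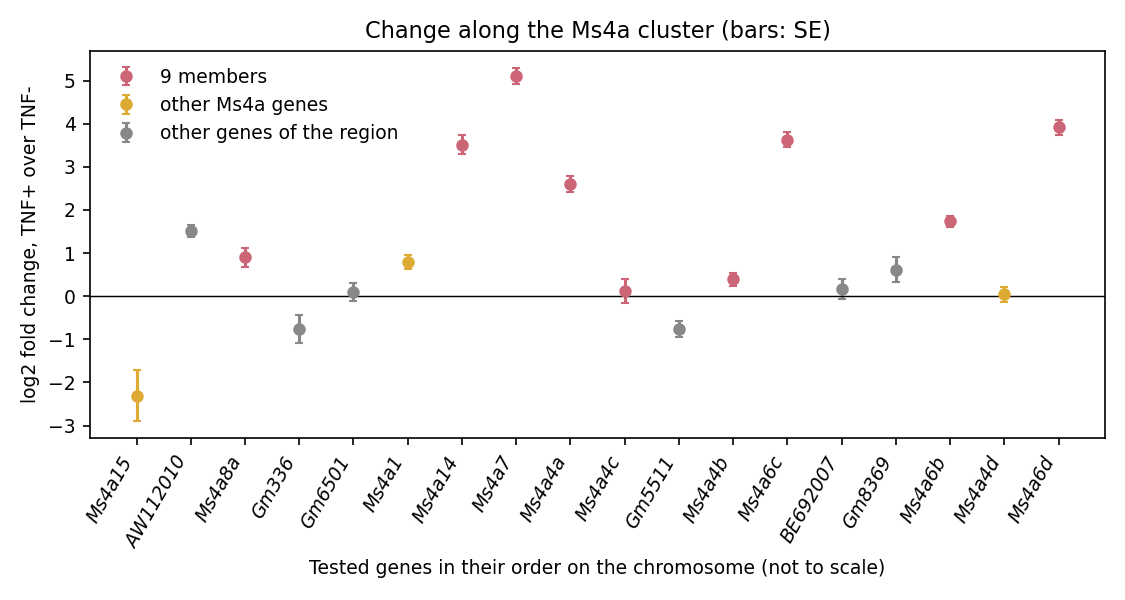
Log2 fold change of TNF+ over TNF- for the tested genes of the Ms4a cluster, in their order along the chromosome (bars show SE, the spacing is not to scale). Ms4a7, Ms4a6d and Ms4a6c stand highest, whereas Ms4a4c and Ms4a4b, neighbors in the middle of the cluster, lie near 0.

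Among the other members of the superfamily, the highest log2 fold change was 1.15. Of 15 such genes, 12 had a row and 5 had enough counts to be tested, of which 3 were higher and 1 lower in TNF+. Among all tested genes, 24% were higher and 23.4% lower. Ms4a1, which encodes CD20, had 505, 426 and 629 counts in TNF+ and 331, 325 and 400 in TNF-, with a log2 fold change of 0.79 (SE 0.17, adjusted p = 0.00559 in the edgeR test). The related membrane protein genes Tmem176a and Tmem176b, on chromosome 6, were abundant in every lung and had log2 fold changes of 0.81 and 1.15. Ms4a4d, which lies between Ms4a6b and Ms4a6d, had 541, 597 and 725 counts in TNF+ and 792, 743 and 548 in TNF-, and its value of 0.04 (adjusted p = 0.854) was not significant. Ms4a15 was lower in TNF+, by counts of 6, 1 and 3 against 14, 21 and 25 (adjusted p = 0.0126), and it did not pass the test without TNF+ 3, when its log2 fold change was -2.14. Ms4a10, Ms4a12, Ms4a13 and Ms4a18 had 0 counts in every lung, which allows at most 0.118 CPM in the shallowest library by the 3-count limit.

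To compare the genes with each other, counts were divided by the length of each gene's exons and scaled to the same total in every lung, as TPM. The summed TPM of the 9 genes was 212, 218 and 298 in TNF+ and 38.6, 35.8 and 43.9 in TNF-, that is 243 ± 48.1 against 39.4 ± 4.16 (SD). The ratio was 6.16, and the exact permutation test over lungs gave a two-sided p of 0.1, the smallest that 3 against 3 lungs allow. With the longest protein-coding transcript as the length the ratio was 6.64, and with CPM, which uses no length, it was 7.11. In TNF- lungs Ms4a8a led with 8.93 ± 2.26 TPM, followed by Ms4a6c with 7.60 ± 0.44, and these 2 overlapped. Ms4a6b, Ms4a4a, Ms4a6d and Ms4a4c came next and each overlapped its neighbor in the order, at 5.37, 5.30, 4.42 and 4.35 TPM. Ms4a4b and Ms4a7 overlapped at 1.61 and 1.43 TPM, and Ms4a14 was lowest at 0.428.

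In TNF+ lungs the order was different. Ms4a6c was highest at 79.2 ± 20.8 TPM and overlapped Ms4a6d at 55.8 ± 9.08, while Ms4a7 reached 41.3 ± 8.03 and overlapped Ms4a4a at 27.4 ± 5.95. These overlaps are between ranges over the lungs. Within each TNF+ lung Ms4a6c was above Ms4a6d, and Ms4a7 was above Ms4a4a. Ms4a6b and Ms4a8a overlapped at 15.3 and 13.8 TPM, Ms4a14 and Ms4a4c at 4.18 and 4.11, and Ms4a4b was lowest at 1.83. TPM were not scaled as the normalized counts were. By TPM the mean of Ms4a4c was lower in TNF+ (4.11 against 4.35), unlike its log2 fold change of 0.12. As a share of the summed TPM, Ms4a7 took 3.59% on average in TNF- and 17.2% in TNF+, and Ms4a6c 19.4% and 32.4%. Ms4a8a went the other way, from 22.4% to 5.73%, although its own level was higher in TNF+. When the longest protein-coding transcript was used as the length, Ms4a7 led in TNF+ with 96.4 ± 15.7 TPM, since its union of exons is longer than this transcript, and its share was 7.29% in TNF- and 32.5% in TNF+. By that length the range of Ms4a7 over the TNF+ lungs overlapped that of Ms4a6c at 72.9 ± 17.6 TPM, although Ms4a7 was the higher in each lung.

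**Figure D3:**
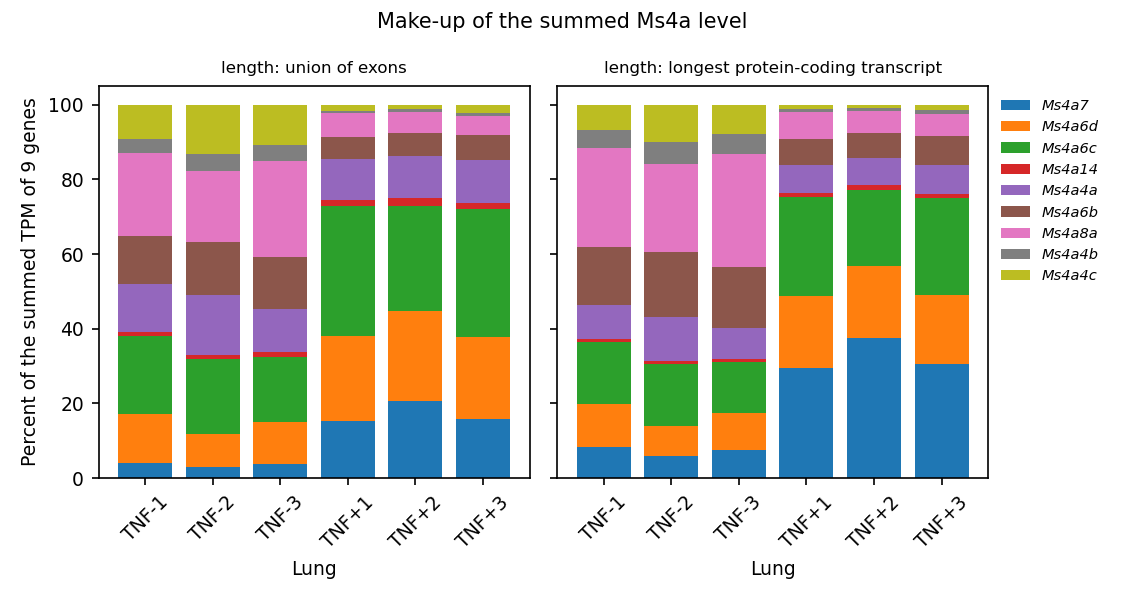
Share of each Ms4a gene in the summed TPM of the 9 genes, in percent, for each lung. Ms4a7, Ms4a6c and Ms4a6d take larger shares in TNF+ than in TNF-, and Ms4a8a, Ms4a4c and Ms4a4b smaller ones.

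Whole lung expression of a macrophage gene follows the amount of macrophage RNA, so each gene was also set against the mean log2 CPM of 8 general macrophage markers (Adgre1, Cd68, Csf1r, Mertk, Fcgr1, Lyz2, Cd14 and Itgam) in the same lung. That mean was 7.82 ± 0.11 in TNF+ and 5.65 ± 0.09 in TNF- (SD, n = 3 each), a difference of 2.17. All 8 markers were higher in TNF+. Relative to this mean, 5 Ms4a genes were higher in TNF+ and 4 lower, without overlap between groups in any of the 9. Over all tested genes, 1.94% were higher and 93.2% lower than this mean without overlap, so the 4 lower Ms4a genes did as most genes did. Each exact permutation test gave p = 0.1, the smallest possible here.

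Ms4a7 was 2.93 higher on the log2 scale relative to the markers, Ms4a6d 1.74, Ms4a6c 1.42 and Ms4a14 1.26, and Ms4a4a 0.40. Ms4a6b was -0.44 relative to them, Ms4a8a -1.27, Ms4a4b -1.77 and Ms4a4c -2.09. The same 5 genes were above and the same 4 below when 8 markers of interstitial macrophages, which live in the lung tissue rather than in the air space, served as the reference (2.07% of all tested genes higher and 92.7% lower without overlap). In that list Lyve1 went the other way, with a log2 fold change of -3.06, which lowered the mean in TNF+. The value of Ms4a4a against it (0.49) thus depended in part on Lyve1, and a mean without Lyve1 was not computed. With 8 markers of alveolar macrophages the value of Ms4a6b turned to 0.68, and Ms4a8a overlapped between groups at -0.16 (5.45% of all tested genes higher and 76.6% lower without overlap). That reference rested largely on Marco: the mean of the 8 was 1.06 higher in TNF+, and the mean of the other 7 was 0.17 higher. Without Marco, in a comparison chosen after seeing the data, Ms4a6b was at 1.56, Ms4a8a at 0.72 and Ms4a4b at 0.22, all higher in TNF+, while Ms4a4c overlapped at -0.09. Against that reference 19.7% of all tested genes were higher and 33.9% lower without overlap.

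The value of Ms4a4a also depended on how the general markers were summarized. With their median in place of their mean, likewise chosen after seeing the data, Ms4a4a was at 0.19 and its groups overlapped (exact permutation p = 0.4). The other 8 genes kept their direction without overlap, and Ms4a7 was at 2.71. Against the median 1.6% of all tested genes were higher and 94.1% lower without overlap. Without Lyz2, which alveolar type 2 cells also express, a further choice made after seeing the data, Ms4a4a was at 0.29 without overlap, and 1.76% of all tested genes were higher and 93.7% lower. Hence Ms4a7, Ms4a6d, Ms4a6c and Ms4a14 were higher in TNF+ relative to each of the 6 references tried, whereas the sign or overlap of the other 5 genes changed with the reference.

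**Figure D4:**
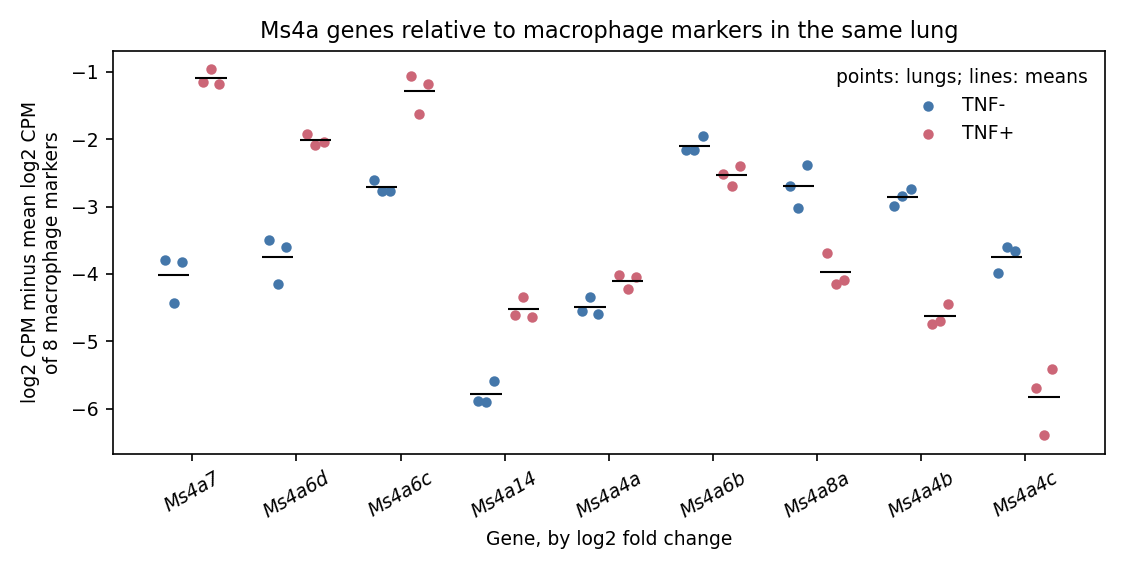
Log2 CPM of each Ms4a gene minus the mean of 8 general macrophage markers in the same lung, for TNF+ and TNF- lungs. Ms4a7, Ms4a6d, Ms4a6c, Ms4a14 and Ms4a4a lie higher in TNF+, and Ms4a6b, Ms4a8a, Ms4a4b and Ms4a4c lower.

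The genes were also compared with each other inside each lung, which needs no reference. Of the 36 pairs, 32 had within-lung differences that did not overlap between TNF+ and TNF- (exact permutation p = 0.1 each, 0.113 after adjustment over the 36 pairs), and with 3 lungs a group no pair can pass 0.05. Over all pairs of tested genes, 60.2% did not overlap. For the copies Ms4a6c and Ms4a6b, the log2 difference within a lung was 1.44, 1.07 and 1.22 in TNF+ and -0.43, -0.61 and -0.81 in TNF-, so Ms4a6c had the higher count in each TNF+ lung and Ms4a6b in each TNF- lung. This exchange holds for counts, since Ms4a6b is the longer gene: per length of exons Ms4a6c was above Ms4a6b in both groups, and with transcript length the 2 overlapped in TNF-. The difference between Ms4a7 and Ms4a6d was 1.19 larger in TNF+ on the log2 scale, that between Ms4a14 and Ms4a4a 0.86 and that between Ms4a4a and Ms4a6b 0.84. The 4 pairs that overlapped were Ms4a6d with Ms4a6c (0.31), Ms4a6d with Ms4a14 (0.48), Ms4a6c with Ms4a14 (0.16) and Ms4a4b with Ms4a4c (0.31). For these pairs the difference in change was within the spread between lungs.

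Several genes that encode partners of MS4A proteins and components of the TREM2 pathway were higher in TNF+ together with the Ms4a genes. Of 14 listed genes, 12 were tested, 11 were higher and 1 was lower, with a median log2 fold change of 1.63. For comparison, 24% of all tested genes were higher and 23.4% lower. Trem2 had 2355, 3772 and 2596 counts in TNF+ and 81, 110 and 143 in TNF-, a log2 fold change of 4.93 (SE 0.24, adjusted p = 5.80e-06 in the edgeR test). Clec7a, which encodes Dectin-1, had 3717, 4583 and 3091 counts in TNF+ and 506, 495 and 649 in TNF-, a log2 fold change of 3.03 (SE 0.21). The adaptor genes Tyrobp and Fcer1g had log2 fold changes of 2.85 and 2.59, and Adam10 and Adam17, whose products cleave receptors such as TREM2 from the surface, 0.58 and 1.51. The lower gene was Kit, the receptor of stem cell factor, at -0.78, and Vsig4 and Fcer1a had too few counts to be tested.

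All 9 of 9 myeloid transcription factor genes were higher in TNF+, against 24% of all tested genes, with a median log2 fold change of 1.86. Cebpa, a factor of myeloid differentiation, had the smallest value at 0.43 (SE 0.11). Spi1, which encodes PU.1, had 2845, 3462 and 3859 counts in TNF+ and 720, 760 and 873 in TNF-, with a log2 fold change of 2.32.

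Markers of the cells that can express Ms4a genes moved in different directions, while 24% of all tested genes were higher and 23.4% lower. All 8 general macrophage markers and 7 of 8 interstitial macrophage markers were higher in TNF+, with medians of 2.65 and 2.20, whereas Lyve1 in the latter list was lower (-3.06). Of 8 alveolar macrophage markers, 3 were higher, 2 lower and 3 did not pass the test, from -1.72 for Car4 to 7.10 for Marco. Which cells of the whole lung the RNA of Car4 and the other markers came from was not measured. Of 6 monocyte markers, 5 were higher and none (0) lower, led by Adgre4 with 3.53. Their summed level was 285 to 364 CPM in TNF+ and 129 to 141 in TNF-, against 8273 to 9829 and 2808 to 3064 for the macrophage markers. Lyz2 alone made up 73.7 to 79.6% of the latter sum in TNF+ and 87.9 to 88.7% in TNF-, so it is mostly the level of 1 gene.

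T cell markers bear on Ms4a4b, the gene of the family best known in T cells. Of 8, 7 were higher in TNF+, and this count fell to 4 without TNF+ 1, TNF+ 2, TNF- 1 or TNF- 2. The shares over all tested genes were 24% higher and 23.4% lower. Cd4, which some mouse macrophages may also express, was the largest with 4.84, while Cd3e had 0.23 and did not pass the test. NK cell markers were mostly lower, 4 of 6 with a median of -1.73, and their summed level was 13.1 to 16.7 CPM in TNF+ and 34.7 to 47.8 in TNF-. The part of T and NK cells in the values of Ms4a4b was not tested.

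Of the remaining lists, B cell markers were higher for 3 of 6 genes and dendritic cell markers for 2 of 7, with 1 lower. Neutrophil markers were higher for 2 of 8, with Mmp9 the highest at 4.99, and lower for 5. For comparison, 24% of all tested genes were higher and 23.4% lower, and the shares of dendritic cell and neutrophil markers that were higher lay near the former. The neutrophil counts became 1 higher without TNF+ 1, TNF+ 3, TNF- 1 or TNF- 2, and 3 lower without TNF+ 2, TNF+ 3 or TNF- 3, and the lower dendritic cell marker was not called without TNF+ 2, TNF- 2 or TNF- 3, or with the replicate number as a block. Mast cell and basophil markers were lower for 5 of 6 tested genes, and for 2 when at least 10 counts were required in every lung. Lung epithelium markers were lower for 6 of 8 and endothelium markers for 6 of 6. Squamous epithelium and skeletal muscle markers, high in TNF- 1, were lower for 4 of 6 tested genes, for 1 when any TNF+ lung was left out and for 0 with DESeq2 or limma-voom. The part of any of these cell types in the Ms4a values was not tested.

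**Figure D5:**
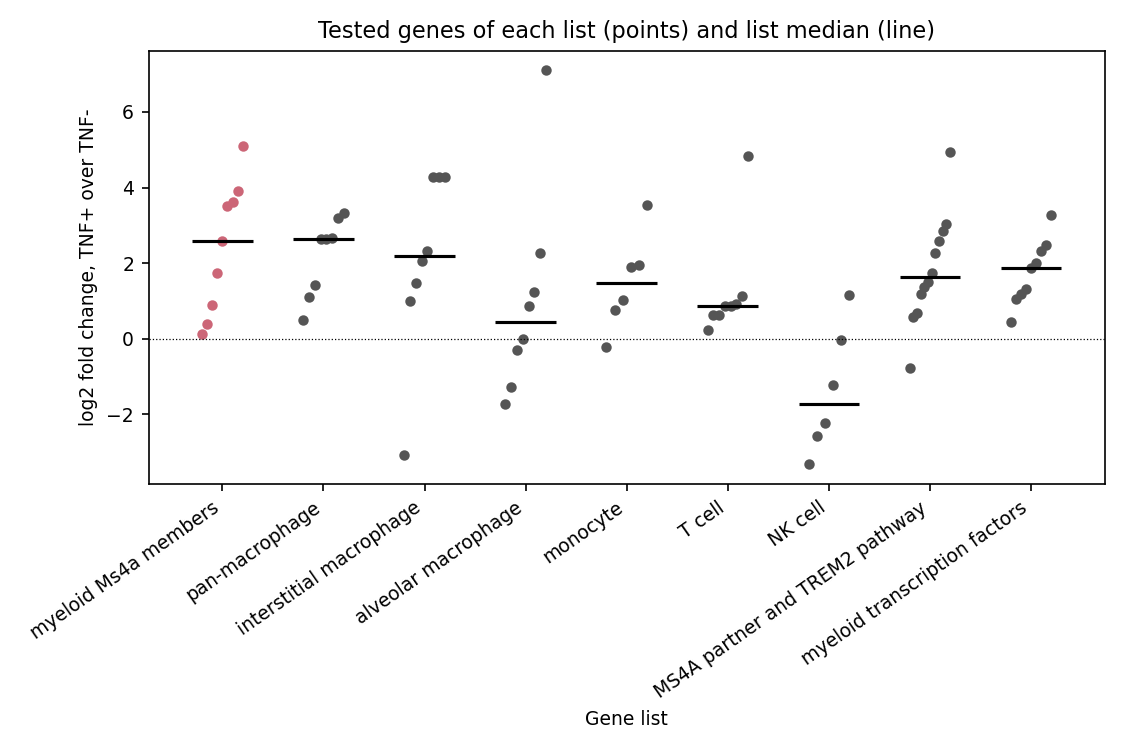
Log2 fold change, TNF+ over TNF-, of each tested gene in the Ms4a, partner and transcription factor lists and in some cell type marker lists. The cell type lists shown are general, interstitial and alveolar macrophage, monocyte, T cell and NK cell. The Ms4a genes spread from 0.12 to 5.11, the transcription factors and general macrophage markers lie above 0, and NK cell markers lie on both sides of 0.

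Genes whose pattern over the 6 lungs was nearest to each Ms4a gene were named by the root mean square difference of log2 CPM after centering. For Ms4a7 they were Mmp9, a gelatinase gene that is also on the neutrophil list (0.183), and Clec4n, a C-type lectin gene (0.247). For Ms4a6d they were Tnip3 (0.148) and Ptafr (0.172), and for Ms4a6c Clec4a1 (0.113) and Tnfaip3 (0.123). For Ms4a4a they were C3ar1, the receptor of complement C3a (0.109), and Evi2a (0.110). Ms4a6b lay nearest to Il2rg (0.060) and Sirpb1b (0.070), Ms4a14 to Pdlim4 (0.064) and Hpgds (0.093), and Ms4a8a to Dctpp1 (0.107) and Cyp51 (0.125). For Ms4a4b they were Gm4950 (0.042) and Plk1 (0.052), and for Ms4a4c Ifi214 (0.132) and Trmt12 (0.142). Only 3 of the 18 named genes were named again when each pattern was also scaled to its SD.

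Because the close copies could share reads, the transcripts of each gene were cut into windows of 100 bases, the read length, and searched in all other transcripts. Ms4a4c shared 29 of 1747 windows with Ms4a4b, 1.66%, and Ms4a4b shared 0.473% of its own windows. Ms4a6c shared 0.513%, with Prdm11, and the other 6 genes shared 0%. At a read length of 50 bases the share would be 10.5% for Ms4a6c and 8.19% for Ms4a4c. Per the study's methods, differential expression was computed on uniquely mapped transcripts, while the setting of the counter for reads that match several genes is not given in the sources used here. Values of Ms4a4b, Ms4a4c and Ms4a6c, which share windows with other genes, carry that uncertainty.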

How the data were processed

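Total RNA of whole lung was made into stranded poly(A) libraries (TruSeq) and sequenced as single-end reads of 100 bases. Per the labels, the authors trimmed with Trimmomatic 0.36, aligned with STAR 2.5.2b to GRCm38.p5 and counted with featureCounts. The annotation and the strand setting of the counting are not given in the sources used here. The deposited values are raw counts per gene symbol, with no normalization, for 6 lungs. Replicates are separate mice, and groups were taken from the sample titles.

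The table was filtered with filterByExpr, scaled by TMM and fitted with edgeR 4.0.16 (R 4.3.3) by the quasi-likelihood test, TNF+ against TNF-, over all genes. P-values were adjusted by Benjamini-Hochberg and called under 0.05. SE is the absolute log2 fold change divided by the square root of F, and normalized counts are scaled to TMM library sizes. Log2 CPM used a prior count of 2. Within-lung differences were tested by two-sided exact permutation over lungs. Alternatives were DESeq2 1.42.0, limma-voom 3.58.1, other scalings and filters, and leaving out each lung. The fit was tested on simulated counts. Positions, lengths and transcripts came from GENCODE M21 (GRCm38), which matched 47240 of 49568 symbols; protein sequences were not used here, and coding identity was computed from the transcripts. The Ms4a genes and all lists were chosen with earlier results of these data known, so their counts are descriptions and not independent evidence. Genes named in the text are the members, the other tested Ms4a superfamily genes, the called genes with the largest and smallest log2 fold change of each list, and for each member the 2 genes outside the superfamily with the nearest pattern and a mean log2 CPM of at least 1. The cluster genes, Ms4a10, Ms4a12, Ms4a13, Ms4a18, and Clec7a, Tyrobp, Fcer1g, Adam10, Adam17, Spi1 and Cd3e were added after their values were seen. One gene that this rule names is not reported here.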

Additional observations from a re-analysis of the deposited data

How the results depend on the processing

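Over 16 alternatives to the edgeR fit, 140 of the 144 log2 fold changes of the 9 genes kept their direction and side of the threshold. Ms4a4c was between -0.064 and 0.36 when 1 lung was left out, with its sign turned in 3 of 6 cases, and Ms4a4d, likewise not significant, was between -0.13 and 0.14. A minimum absolute log2 fold change of 1 left out Ms4a8a (0.90) and reduced the genes called to 4320, 1980 higher and 2340 lower. The same minimum left 1 other Ms4a superfamily gene higher and 0 partner genes lower. Requiring 10 counts in every lung left 0 of the superfamily genes lower, since Ms4a15 was then not tested. Against alveolar macrophage markers Ms4a6b turned to 0.68. Without Marco among them, an alternative chosen after seeing the data, Ms4a6b turned to 1.56, Ms4a8a to 0.72 and Ms4a4b to 0.22. Of the 18 nearest genes, 3 were named again after scaling to SD; the causes of these changes were not tested. Replicate numbers did not pair the lungs: same-numbered lungs had correlations of deviations of -0.15, -0.0043 and -0.24. With the replicate number as a block, the log2 fold change of Ms4a8a was 0.90 (adjusted p = 0.0244), and no call among the 9 genes changed; the lower dendritic cell marker was no longer called (0 lower), and 2 squamous and muscle markers were lower. With 3 lungs a group, exact tests over lungs cannot pass 0.1, and genes under the low-count filter were not testable.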
